A study of Arabidopsis thaliana with 6 samples.

Results

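The glucosinolate genes described here are 52 loci of Arabidopsis thaliana, chosen by their locus names as genes of aliphatic and indole glucosinolate synthesis, their MYB regulators, their transporters, and the myrosinases and specifier proteins of breakdown. All 52 were found among the 21500 probes of the array, each with 1 probe, and all 52 passed the brightness filter of every fit. They comprise 27 genes of the aliphatic branch, 12 of the indole branch, 2 enzymes shared by both branches, 9 genes of breakdown and 2 transporters. The choice used no measured value, but it was made with earlier results of these data known.

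Glucosinolates are sulphur-rich glucosides that crucifers store as defence compounds against insects and microbes. Aliphatic glucosinolates start from methionine, whose side chain is first lengthened in a cycle of aminotransferase, synthase, isomerase and dehydrogenase steps, whereas indole glucosinolates start from tryptophan. In both branches CYP79 and CYP83 cytochromes P450, a C-S lyase, glucosyltransferases and sulphotransferases build the core, and R2R3-MYB factors control the genes of each branch. When tissue is wounded, myrosinases cut off the glucose, and specifier proteins steer the product towards nitriles or epithionitriles instead of isothiocyanates.

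The RNA came from 28-day plants, sampled whole except for the root, and was hybridised to 6 Agilent arrays with 2 colours. On 4 arrays plants of ecotype Columbia, given 5 mM salicylic acid (SA, a defence hormone) for 2, 5, 10 or 24 h, were labelled with Cy5 and set against an untreated Columbia plant in Cy3, with 1 array per time. On the other 2 arrays plants overexpressing SIBA (AT3G56710, named SIB1 in RefSeq) from CA32F3 (line 1) or CA32F4 (line 2) were set against a vector control plant in Cy3. The labels give the overexpressors' age and organ and no ecotype or SA treatment; they state neither the promoter of the transgene nor whether the lines arose from separate transformations.

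Values are log2 ratios of Cy5 over Cy3, so 1 is a 2-fold higher and -1 a 2-fold lower level than in the control plant. The dyes were not swapped, so a dye preference of a probe cannot be told apart from a change. The median net Cy5 signal was 21.5 to 84 on the 2 h and both overexpressor arrays and 206.5 to 404 at 5, 10 and 24 h, and 1722 spots (8.01%) were marked as outliers at 24 h against 10 to 25 on the other arrays. No member was saturated on any array, and 6 of the 312 member values, all at 24 h, were left out as outliers. The labels do not say that RNAs came from separate plants or cultures, so a p-value reflects array-to-array spread alone, possibly technical in part, which for SA is the spread between times. SIB1 had ratios of 5.25 and 5.59 in the lines, and PR1, a marker of the SA response, had ratios of 0.10, 0.71, 2.47 and 2.89 at 2, 5, 10 and 24 h. The leaf genes RBCS1A and CAB2 were saturated in at least 1 channel on all 6 arrays. Root marker probes also carried the mark for signal well above background, so that mark did not show whether root was absent. In bulk tissue, fewer cells of a type and less RNA per cell cannot be told apart.

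**Figure D1:**
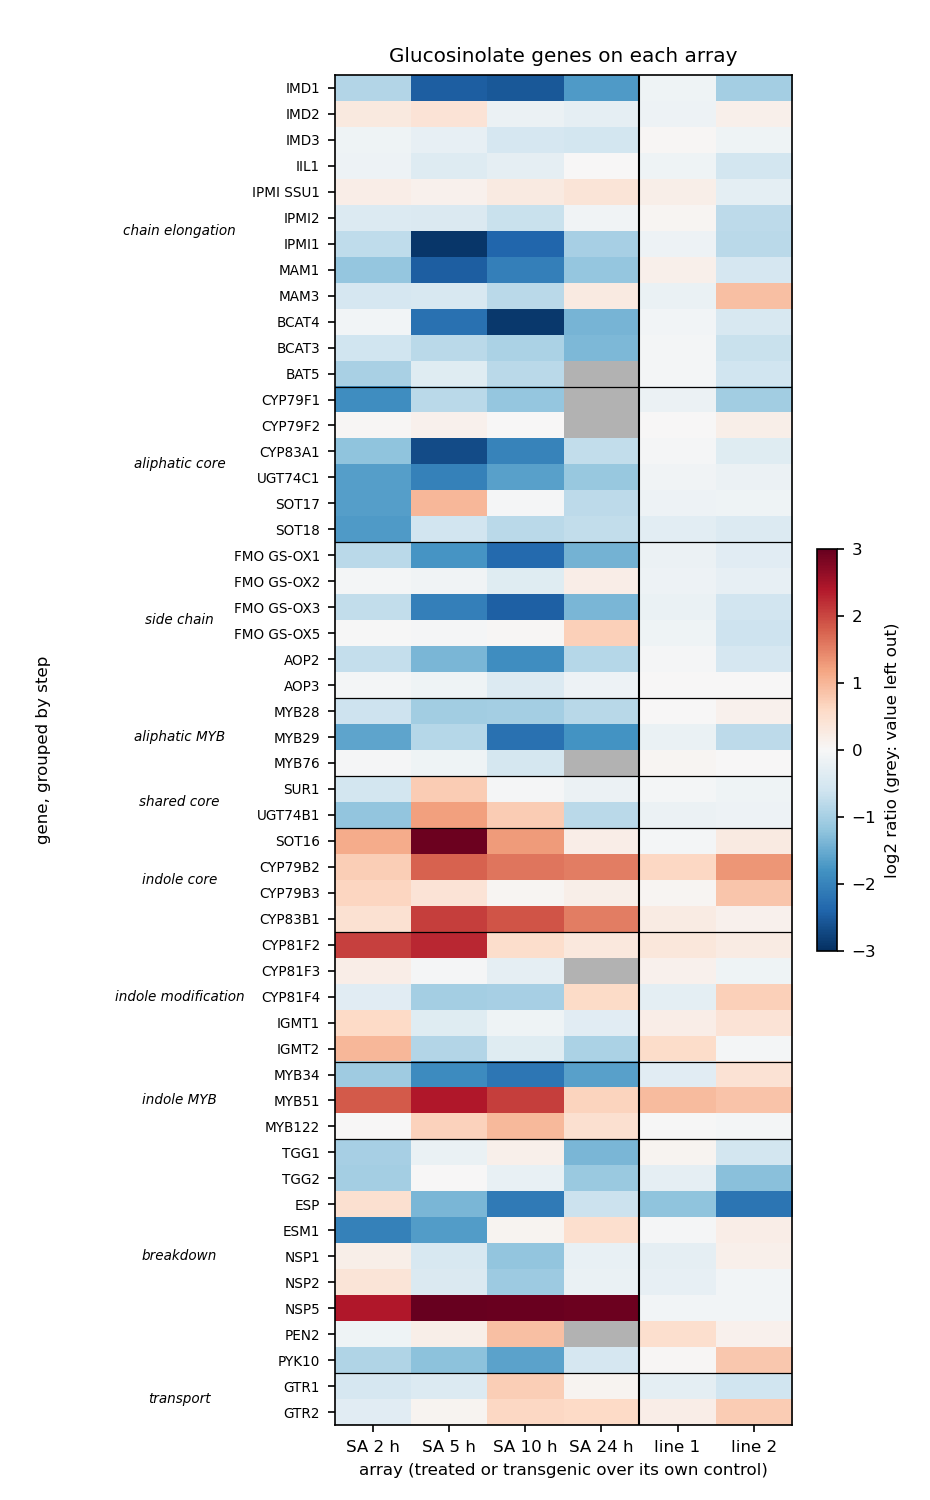
Log2 ratio of each of the 52 genes (rows, grouped by step) on each array (columns), from blue (lower than the control plant) to red (higher), with colours capped at 3 in either direction and left-out values in grey. Most aliphatic rows are blue at the SA times, the 4 rows of the indole core are red, and NSP5 is the reddest row at 5, 10 and 24 h.

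The SA arrays ask how the pathway's transcripts shifted with the hormone. The control plants are described as untreated, so an effect of applying the treatment cannot be told apart from one of SA itself. Averaged over the 4 times, genes of the aliphatic branch stood below the untreated plant and the core enzymes of the indole branch above it, and the nitrile-specifier gene NSP5 was the member farthest from 0. A call needed an adjusted p under 0.05 in limma, with Benjamini-Hochberg adjustment over all probes, and a mean that lay 2-fold or more from the control. By that rule 3 of 52 members rose, MYB51, CYP79B2 and NSP5, against 2.80% of all 21280 probes tested. The rule called 9 members lower, namely IMD1, MAM1, UGT74C1, FMO GS-OX1, FMO GS-OX3, AOP2, MYB29, MYB34 and PYK10, against 0.954% of all probes. The other 40 members were not called. At any size of change 14 members had an adjusted p under 0.05, the additional ones being MYB28 and BCAT3. The calls rest on few arrays: without the 5 h array or without the 10 h array no member was called (0 of 52 in each fit, as were 0 of all probes), and without the 24 h array 3 were, MYB51, NSP5 and UGT74C1, against 0.737% of all probes in either direction. Without the 2 h array, which leaves 3 arrays of similar brightness with files of the same column layout, 11 members were called, 8 of them among the 12, against 3.93% of all probes. Under median centring in place of loess 4 members were higher and 7 lower, and over all probes 1040 calls were higher and 86 lower, against 596 and 203 with loess.

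By branch, the median SA mean was -0.88 over the 27 aliphatic genes, 0.43 over the 12 indole genes and -0.59 over the 9 breakdown genes, beside -0.01 over all probes. In the aliphatic branch 0 genes rose, 7 fell and 23 had a mean below 0. In the indole branch 2 genes rose and 1 fell, and among the breakdown genes 1 rose and 1 fell. Over all probes tested 2.80% rose and 0.954% fell. On single SA arrays 47.1% to 52.9% of all probes had a ratio below 0. The gap between the indole and aliphatic medians was similar from array to array, at 1.24, 1.12, 1.12 and 1.09 at 2, 5, 10 and 24 h. Members are bright probes, with a median log2 brightness of 10.22 against 8.04 over all probes at 10 h, and centring each array on its median in place of the loess curve left the aliphatic median at -0.56.

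On single arrays, which have no replicate and hence no test, members past 2-fold at 2 h numbered 4 on the higher and 11 on the lower side, against 3.84% and 2.31% of all probes. At 5 h these counts were 7 higher and 15 lower, against 6.09% and 3.66%. At 10 h they were 5 and 18, against 7.30% and 4.43%, the most lower members at any time. At 24 h, where 46 members had a value, they were 3 and 11, against 5.31% and 5.63%. At all 4 times NSP5 stayed at least 2-fold higher, as did 1.71% of all probes. MAM1, UGT74C1 and MYB34 stayed at least 2-fold lower at all 4 times, as did 0.248% of all probes.

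Chain elongation lengthens methionine before the core is made. MAM1 (AT5G23010), the methylthioalkylmalate synthase of short chains, had ratios of -1.15, -2.47, -2.06 and -1.17 at 2, 5, 10 and 24 h. All 4 were below -1, the deepest at 5 and 10 h, and the mean of -1.71 ± 0.661 (SD, n = 4) was called (adjusted p = 0.0342). Its neighbour MAM3, the synthase of long chains, had ratios of -0.51, -0.48, -0.80 and 0.28, a mean of -0.38 that was not called (adjusted p = 0.299). IMD1 (AT5G14200), the isopropylmalate dehydrogenase used for methionine, had ratios of -0.87, -2.48, -2.55 and -1.70. This was the lowest mean of all members, -1.90 ± 0.789 (SD, n = 4; adjusted p = 0.0381). IMD2, a related dehydrogenase known from leucine synthesis, had ratios of 0.30, 0.41, -0.18 and -0.27, on both sides of 0.

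BCAT4 (AT3G19710), the aminotransferase that opens the cycle, had ratios of -0.08, -2.23, -2.90 and -1.40. It stood at the control's level at 2 h and far below it later, so its mean of -1.65 had a large spread (SD 1.21, n = 4) and was not called (adjusted p = 0.114). IPMI1, a small subunit of isopropylmalate isomerase, had a similar course, with ratios of -0.77, -2.92, -2.38 and -0.99 and a mean of -1.76 ± 1.05 (SD, n = 4; adjusted p = 0.0747), called in 4 of 8 other processing settings. IPMI SSU1, a related small subunit, had ratios of 0.21, 0.12, 0.26 and 0.39, all slightly above 0. BCAT3, the plastid aminotransferase, had ratios of -0.60, -0.80, -0.96 and -1.35, and its mean of -0.93 ± 0.317 (SD, n = 4) had an adjusted p of 0.0314 but was short of 2-fold. Of the 12 genes of the step 2 fell, against 0.954% of all probes, and 10 had means below 0. Means of the 4 not yet named, IMD3, IIL1, IPMI2 and BAT5 (the plastid transporter of the 2-oxo acids, 3 arrays), lay between -0.72 and -0.21. That of IIL1 turned to 0.14 under median centring.

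In the aliphatic core UGT74C1 (AT2G31790), a glucosyltransferase, had the ratios with the least spread among the lower members called, -1.65, -2.03, -1.64 and -1.13. Its mean was -1.61 ± 0.369 (SD, n = 4; adjusted p = 0.0192). CYP83A1 (AT4G13770), the P450 that acts on the aliphatic aldoximes, had ratios of -1.21, -2.68, -2.00 and -0.73. All 4 were below 0, and the mean of -1.66 ± 0.861 (SD, n = 4) was not called (adjusted p = 0.0584), though it was in 5 of 8 other processing settings. CYP79F1 (AT1G16410), which makes aldoximes from chain-elongated methionine, had ratios of -1.87, -0.81 and -1.15 at 2, 5 and 10 h and a mean of -1.28 (adjusted p = 0.0655) that was called in 4 of 8 other settings. CYP79F2, the adjacent paralog that acts on long chains, stayed at 0.04, 0.13 and 0.00 at the same times. Its probe was dimmer than the median probe on each of these arrays. Its log2 brightness was 5.83, 7.62 and 7.74, against 8.22, 11.11 and 11.86 for CYP79F1. The offset of the background correction draws ratios of dim spots towards 0, so a change in CYP79F2 could be understated. Its mean of 0.06 was 0.07 with the scanner software's ratio. CYP79F1 and CYP79F2 both lack a value at 24 h, and cross-hybridisation between such close copies was not tested. The sulphotransferase SOT17 had ratios of -1.66, 0.99, -0.04 and -0.78, low at 2 h and high at 5 h. SOT18, the second aliphatic sulphotransferase, had ratios of -1.70, -0.57, -0.80 and -0.75, all below 0, and was not called (adjusted p = 0.0649).

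Side-chain enzymes oxidise and trim the finished aliphatic glucosinolates. FMO GS-OX1 (AT1G65860), an S-oxygenase, had ratios of -0.80, -1.77, -2.34 and -1.41, a mean of -1.58 ± 0.647 (SD, n = 4; adjusted p = 0.0376). FMO GS-OX3 (AT1G62560), of the same family, had ratios of -0.75, -2.04, -2.45 and -1.36, a mean of -1.65 ± 0.749 (SD, n = 4; adjusted p = 0.0448). Both were deepest at 10 h and least changed at 2 h. FMO GS-OX2, adjacent to FMO GS-OX3, had ratios of -0.06, -0.10, -0.36 and 0.20, and FMO GS-OX5, the member for long chains, had -0.02, -0.03, 0.04 and 0.72. Neither of these passed the test. AOP2 (AT4G03060), which RefSeq lists as a transcribed pseudogene, had ratios of -0.72, -1.37, -1.87 and -0.85, a mean of -1.20 ± 0.530 (SD, n = 4; adjusted p = 0.0438). AOP3, a related dioxygenase, had a mean of -0.19 and held the scanner software's surrogate value in both channels at 2 h.

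**Figure D2:**
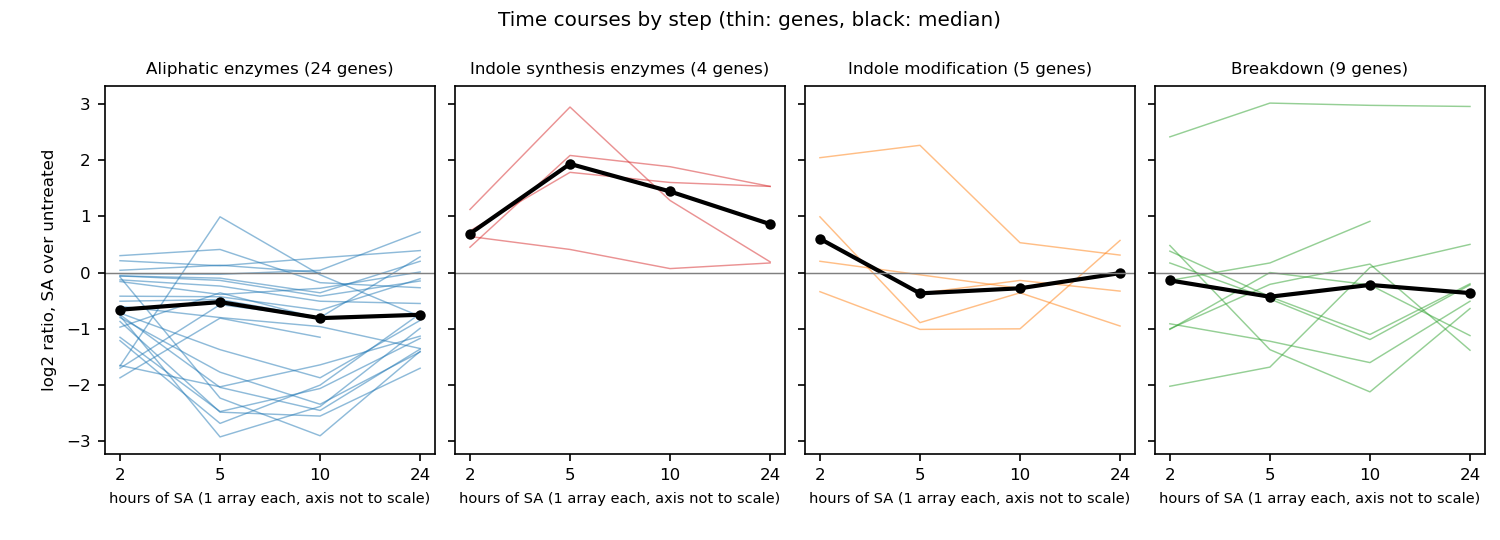
Log2 ratio of SA over untreated (vertical axis) against hours of SA (horizontal axis, evenly spaced categories, 1 array each), with a thin line per gene and the median in black. The indole synthesis median is above 0 at all 4 times, with its highest point of 1.93 at 5 h, and some thin aliphatic lines dip below -2 at 5 and 10 h.

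Of the 3 MYB factors of the aliphatic branch, MYB29 fell. The ratios of MYB29 (AT5G07690) were -1.59, -0.86, -2.25 and -1.79, a mean of -1.62 ± 0.576 (SD, n = 4; adjusted p = 0.0299). MYB28 (AT5G61420), which acts with MYB29 as the main activator of the branch, had ratios of -0.62, -1.04, -1.03 and -0.84, close together and all below 0. Its adjusted p was 0.0221, and its mean of -0.88 ± 0.199 (SD, n = 4) was short of 2-fold, but it passed 2-fold and was called in 3 of 8 other settings. MYB76, adjacent to MYB29, had ratios of -0.04, -0.13 and -0.53 at 2, 5 and 10 h, with a surrogate Cy5 value at 2 h and none at 24 h.

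The MYB factors of the indole branch went in different directions. MYB51 (AT1G18570), an activator of indole glucosinolate genes in leaves, had ratios of 1.83, 2.40, 2.08 and 0.66, a mean of 1.75 ± 0.758 (SD, n = 4; adjusted p = 0.0410). It was more than 2-fold higher at 2, 5 and 10 h and less so at 24 h. MYB34 (AT5G60890), an activator of the same branch known also from tryptophan synthesis, had ratios of -1.06, -1.88, -2.16 and -1.62, a mean of -1.68 ± 0.469 (SD, n = 4; adjusted p = 0.0230). The values of MYB51 and MYB34 did not overlap and lay on opposite sides of 0 at all 4 times. MYB122, the third factor, had ratios of 0.00, 0.70, 0.97 and 0.48 (adjusted p = 0.138). Its Cy3 channel was not well above background at 5 and 10 h. The ratio as measured was 1.62-fold at 5 h. At 10 h it was at least 1.81-fold if the control is taken at the lowest Cy3 signal marked well above background. Each value comes from 1 array.

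All 4 enzymes of the indole core had SA means above 0, with a median of 1.40, and 1 of them was called, against 2.80% of all probes higher. CYP79B2 (AT4G39950), which turns tryptophan into indole-3-acetaldoxime, had ratios of 0.74, 1.78, 1.60 and 1.53, a mean of 1.41 ± 0.463 (SD, n = 4; adjusted p = 0.0277). CYP79B3, which catalyses the same reaction, had ratios of 0.64, 0.41, 0.07 and 0.17, all above 0 and none 2-fold, and was not called (adjusted p = 0.172). CYP83B1 (AT4G31500), the next enzyme, had ratios of 0.45, 2.08, 1.88 and 1.53, low at 2 h and high later. Its mean of 1.48 ± 0.726 (SD, n = 4) was not called (adjusted p = 0.0520), though it was in 6 of 8 other processing settings. SOT16, the sulphotransferase of indole glucosinolates, had ratios of 1.12, 2.94, 1.28 and 0.19, highest at 5 h and near the control at 24 h, and was not called (adjusted p = 0.144).

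None of the 5 genes that modify the indole ring was called. CYP81F2, which hydroxylates indol-3-ylmethyl glucosinolate and is known for its part in pathogen defence, had ratios of 2.04, 2.26, 0.53 and 0.31. It was over 4-fold higher at the first times, 2 and 5 h, and under 2-fold later (mean 1.28, adjusted p = 0.130). CYP81F4, a hydroxylase of another ring position, had ratios of -0.34, -1.01, -1.00 and 0.57. IGMT2, a methyltransferase, had ratios of 0.99, -0.89, -0.36 and -0.95, above 0 only at 2 h. IGMT1, of the same family, had 0.60, -0.37, -0.14 and -0.33, with its only value above 0 also at 2 h. CYP81F3 had ratios of 0.20, -0.04 and -0.28 on its 3 arrays.

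The shared enzymes had means of 0.01 that hide opposite values. UGT74B1, a glucosyltransferase of both branches, had ratios of -1.18, 1.24, 0.75 and -0.80, below 0 at 2 and 24 h and above it at 5 and 10 h. SUR1, the C-S lyase, had ratios of -0.54, 0.77, -0.04 and -0.17, with only the 5 h value above 0. Of the transporters that load glucosinolates into the phloem, GTR1 had ratios of -0.50, -0.41, 0.74 and 0.09 and GTR2 had -0.35, 0.09, 0.62 and 0.59. Neither transporter was called.

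Among the breakdown genes NSP5 (AT5G48180), a nitrile-specifier protein, had ratios of 2.41, 3.01, 2.97 and 2.95. It was more than 5-fold higher at every time, and its mean of 2.83 ± 0.282 (SD, n = 4) or 7.14-fold had the smallest adjusted p of all members, 0.0112. The other specifier genes did not follow it. NSP1 had ratios of 0.17, -0.47, -1.19 and -0.22, and NSP2 had 0.38, -0.43, -1.10 and -0.20. ESP (AT1G54040), the epithiospecifier protein, had ratios of 0.48, -1.37, -2.12 and -0.64, the lowest at 10 h, with a mean of -0.91 ± 1.11 (SD, n = 4; adjusted p = 0.282). ESM1, a modifier that favours isothiocyanates, had ratios of -2.02, -1.68, 0.09 and 0.50. It stood about 4-fold lower at 2 h and at or above the control from 10 h.

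The myrosinase TGG1, abundant in guard cells and myrosin cells, had ratios of -1.00, -0.21, 0.15 and -1.38. TGG2, the second leaf myrosinase, had -1.01, 0.00, -0.22 and -1.12, like TGG1 lower at 2 and 24 h than at 5 and 10 h. Neither was called (adjusted p = 0.264 and 0.197). PYK10 (AT3G09260), a beta-glucosidase of ER bodies that acts on indole glucosinolates and is known mainly from roots and seedlings, had ratios of -0.91, -1.22, -1.60 and -0.51. Its mean of -1.06 ± 0.462 (SD, n = 4) was called (adjusted p = 0.0442), the smallest change among the calls; whether root tissue plays a part was not tested. PEN2, an atypical myrosinase of pathogen defence, had ratios of -0.14, 0.17 and 0.91 at 2, 5 and 10 h and was not called (adjusted p = 0.505).

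**Figure D3:**
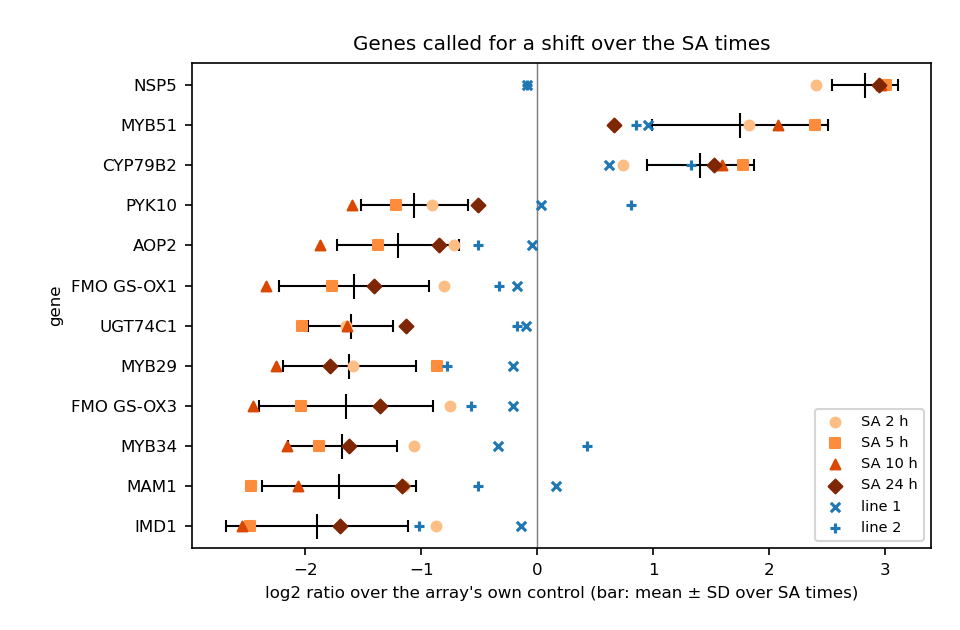
Log2 ratios (horizontal axis) of the 12 genes called over the SA times (vertical axis), with the 4 SA arrays as filled symbols, their mean ± SD as a black bar and the 2 overexpressor lines as blue crosses. NSP5 and UGT74C1 have the smallest SD over the SA times among these genes, IMD1 and MYB51 the largest, and the crosses of NSP5 lie at -0.09.

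A slope of the ratio on log2 of hours asks whether members moved steadily over the SA times. No member was called (0 of 52, against 0% of all probes in limma), with adjusted p of at least 0.987, while 5 members and 980 probes had an unadjusted p under 0.05. ESM1 had the steepest slope among the members, 0.78 per doubling of hours, from its low values at 2 and 5 h to those above 0 at 10 and 24 h (adjusted p = 0.987). With 1 array per time, a course that dips and returns, as in MAM1 or BCAT4, gives a slope near 0 or a large residual.

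The overexpressor arrays ask which members changed with SIB1. No member was called (0 of 52, against 0% of all 21482 probes in limma), the smallest adjusted p being 0.664, and 6 members and 995 probes had an unadjusted p under 0.05. The transgene SIB1 itself did not pass in this fit of 2 arrays, so a missed threshold does not show that a member was unchanged. Line 1 lay close to its control, with 0 members past 2-fold on the higher and 1 on the lower side, against 0.191% and 0.0838% of all probes. Line 2 had 1 higher and 4 lower, against 1.88% and 2.26%. In the processing used here, at least 2-fold in both lines were 0 members on the higher side, against 0.107% of all probes, and ESP on the lower side, against 0.0512%.

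ESP had ratios of -1.20 and -2.20 in lines 1 and 2, a mean of -1.70 ± 0.708 (SD, n = 2; adjusted p = 0.664). It was the lowest member in both lines. MYB51 had ratios of 0.96 and 0.85, just under 2-fold in both, and a mean of 0.91. The size for MYB51 depends on the processing. Its mean was past 2-fold with offset 16 (1.24), the scanner software's ratio (1.49), median centring (1.27) and the authors' ratios (1.26). It stayed at 0.91 with outlier spots kept, without the brightness filter and with the dimmest probes left out. CYP79B2 had ratios of 0.62 and 1.33, the highest member in line 2. When arrays were centred on their median instead of by loess, MYB51 and CYP79B2 were called in the overexpressors and no other member was. In that setting 412 of 21482 probes (1.92%) were called, 406 of them higher, against 0 with loess, and the mean of ESP was -1.06.

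NSP5 had a ratio of -0.09 in either line. MYB34 had -0.34 and 0.43, MYB29 -0.21 and -0.78, and MYB28 0.01 and 0.14. CYP83B1 stood at 0.25 and 0.13 and CYP81F2 at 0.33 and 0.25, above 0 in both lines. The size for CYP81F2 depends on the processing, with a mean of 0.29 here and 2.20 with the scanner software's ratio. The paired myrosinase genes differed between lines, with TGG2 at -0.27 and -1.25 and TGG1 at 0.08 and -0.55. IMD1 had -0.14 and -1.02 and CYP79F1 -0.17 and -1.05, both near the control in line 1 and about 2-fold lower in line 2.

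The aliphatic median over the lines was -0.25, the indole median 0.22 and the breakdown median -0.09, beside 0.00 over all probes. The gap between the indole and aliphatic medians was 0.27 in line 1 and 0.77 in line 2. These signs depend on the centring: without loess, 30 of the 52 members had an overexpressor mean of the other sign and the aliphatic median was 0.29 (indole 0.60). In that setting the probes at least as bright as the median member had a median ratio of 0.65 in line 1 and 0.67 in line 2, against 0.02 and 0.01 after loess.

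**Figure D4:**
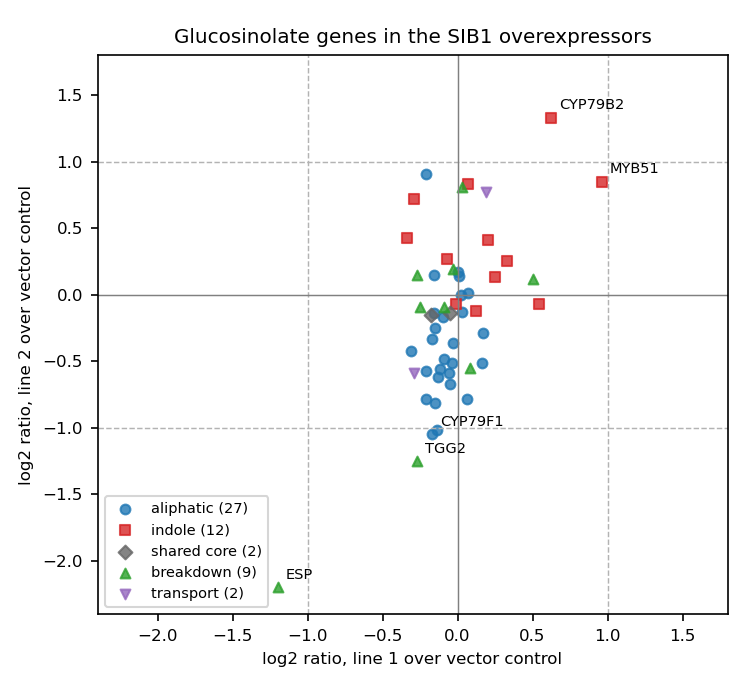
Log2 ratio over the vector control in line 1 (horizontal axis) against line 2 (vertical axis), with a point per gene coloured by branch and dashed lines at 2-fold. ESP lies beyond 2-fold lower in both lines, MYB51 and CYP79B2 lie at the upper right, and the values spread more along line 2 than along line 1.

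The SA mean minus the overexpressor mean was tested over all 6 arrays. NSP5 was the 1 member called higher with SA, at 2.92 on the log2 scale (adjusted p = 0.0399), against 0.0605% of all probes; 0 members were called lower, against 0.00466%. It was called in every other processing of the values that was tried, and not called when the 5 h, 10 h, 24 h, line 1 or line 2 array was left out. MYB34 had a difference of -1.73 (adjusted p = 0.174), UGT74C1 of -1.48 (adjusted p = 0.129) and MYB28 of -0.96 (adjusted p = 0.125), none of them called. The contrasts used different control plants, and their files have different column layouts, so layout and contrast cannot be told apart.

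Beyond the 52 loci, 45 further genes of the pathway and its surroundings were listed, and 2 rose with SA and 1 fell, with a median mean of 0.23. These counts are near the 2.80% higher and 0.954% lower of all probes, so they are no result about the list. The 2 that rose are genes of tryptophan synthesis. TSA1, the alpha subunit of tryptophan synthase, had a mean of 2.17 ± 1.01 (SD, n = 4), and TSB1, the beta subunit, a mean of 1.40 ± 0.247 (SD, n = 4). The regulator MYC4, a bHLH partner of the MYB factors, fell, with a mean of -1.09 ± 0.361 (SD, n = 4). The largest means in size were 3.35 for NIT2, a nitrilase, 3.02 for PAD3, an enzyme of camalexin synthesis, 2.17 for TSA1 and 1.96 for IGPS, of tryptophan synthesis, of which TSA1 was called.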

How the data were processed

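The deposited files of the arrays contain, per the file headers, spot intensity with its local background in both channels, flags, and the scanner software's log10 ratio of Cy5 over Cy3. The deposited series table holds a linear ratio per probe; how the authors normalized it was not known here. The files come in 3 column layouts; no software version, slide or scan date was known here.

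From the intensities, background was corrected with normexp (offset 50), followed by loess within each array. The offset draws ratios of dim spots towards 0, which weighs more on the dim 2 h and overexpressor arrays. Spots with outlier marks were left out. Log2 ratios were tested against 0 with lmFit and eBayes in limma 3.58.1 (R 4.3.3), with Benjamini-Hochberg adjustment over all probes. This leaves out the control's own spread. Calls needed an adjusted p under 0.05 and 2-fold; the slope needed the adjusted p only. Probes needed a mark for signal well above background on at least 2 arrays, a mark that nearly every spot carries on the dim arrays, and values on 3 of the 4 SA arrays, on both overexpressor arrays, or on 4 arrays for the difference. The fits were tested on simulated data. With a change equal on every array, the SA fit recovered 36% of changes of log2 size 1 and 90% of size 2. Recovery used the call rule with its 2-fold cut, so changes of size 1 lay at the cut itself. Far fewer genes were changed than the 26.0% of probes with an unadjusted limma p under 0.05 in the SA data. The rates therefore need not hold for the data. The overexpressor fit recovered 0% of sizes 1 and 2 and 44% of size 3, so its lack of calls does not show that members were unchanged. Figures used Python 3.11.15 and matplotlib 3.10.9.

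The members and gene lists, tests and alternatives were chosen with earlier results of these data known. Any member could be named; per-array values are given for members called in any fit, members at least 2-fold the same way on all SA arrays or in both lines, the highest and lowest SA means of each step, the MYB factors, transporters and shared enzymes, and for some others. All 52 loci matched RefSeq's gene table (assembly TAIR10.1), used for names and neighbours only. No coordinates or sequences are printed, since the files name no build and no sequence was used here. The closing section gives the alternatives.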

Additional observations from a re-analysis of the deposited data

Results flagged for a closer look

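NSP5 differed between the contrasts. Its mean with SA minus its mean in the overexpressors was 2.92 on the log2 scale (limma, adjusted p = 0.0399), with SA ratios of 2.41, 3.01, 2.97 and 2.95 and a ratio of -0.09 in either line. The contrasts are different treatments with different control plants and file layouts. Without single arrays the difference was called only when the 2 h array was the one left out, where the smallest adjusted p of any member was 0.0198, against 0.0573 to 0.433 without any other array. Outliers within a group were not tested, as every group holds 1 or 2 arrays.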

How the results depend on the processing

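Alternatives were a normexp offset of 16, the scanner software's ratio, median centring in place of loess, the authors' deposited ratios, outlier spots kept, no brightness filter, the dimmest 25% of probes left out, a variance trend in the test, and each array left out. With SA, 12 members were called; the authors' ratios gave 20, the other processing settings 11 to 16, and leaving out an array 0 to 11. The share of all probes called moved too, from 3.75% to 7.07% with the authors' ratios and to between 3.66% and 6.51% in the other processing settings. The 0 counts came without the 5 h or the 10 h array and 3 came without the 24 h array (0.737% of all probes). Median centring lost IMD1, MAM1 and PYK10; the other 9 calls held in each of the 8 processing settings. Members not called above but called in some of these 8 were CYP83B1 (6), CYP83A1 (5), IPMI1 (4), CYP79F1 (4), MYB28 (3), and BCAT3, MYB122 and SOT18 (1 each, with the authors' ratios). For the overexpressors 0 members were called, except 2 under median centring, where 1.92% of all probes were called, and 0 without either line. The trend gave 0 in each setting run. The difference gave 1, and 0 to 1 without an array; 0 came without the 5 h, 10 h, 24 h, line 1 or line 2 array. An overexpressor fit without a line takes its spread from the SA arrays, so the lone line is assumed to vary like them.

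The SA medians kept their sign. The aliphatic one (-0.88) was -1.02 with the scanner ratio, -0.56 under median centring and -1.08 with the authors' ratios, and -0.89 to -0.71 without an array. The indole one (0.43) was 0.67 with offset 16, 0.88 with the scanner ratio and 0.79 with the authors' ratios. The breakdown one (-0.59) was -0.24 under median centring and -0.51 to -0.41 without an array. In the overexpressors the aliphatic median (-0.25) was 0.29 under median centring, and the indole median (0.22) was 0.36 with the scanner ratio and 0.60 under median centring. The breakdown median (-0.09) was -0.10 with offset 16, -0.10 with the scanner ratio, 0.57 under median centring, -0.13 with the authors' ratios, -0.09 with outliers kept and -0.09 without either line. The medians use no brightness filter, so dropping it leaves them as they were.

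Of single SA means, none of them called, IIL1 turned to 0.14 under median centring and IGMT1 to 0.43 with the scanner ratio. Means close to 0 also crossed it: GTR1 (0.18) and CYP81F3 (0.08) under median centring, CYP81F3 (0.01) with offset 16, UGT74B1 (-0.02) with the scanner ratio, and SUR1 (-0.12) and UGT74B1 (-0.11) with the authors' ratios. Overexpressor means turned sign in 3 members with the scanner ratio, AOP3 (-0.94), MYB28 (-0.10) and NSP2 (0.01), and in 30 under median centring. Without a change of sign, CYP81F2 went from 0.29 to 2.20 and CYP79F2 from 0.08 to 0.97 with the scanner ratio. The 30 overexpressor means that turned sign under median centring took the following values in that setting. The chain elongation genes IMD1, IMD2, IMD3, IIL1, IPMI SSU1, IPMI2, IPMI1, MAM1, BCAT4, BCAT3 and BAT5 had means of 0.09, 0.44, 0.61, 0.32, 0.60, 0.30, 0.03, 0.49, 0.37, 0.31 and 0.26. The core genes CYP79F1, CYP79F2, CYP83A1, SUR1, UGT74B1, UGT74C1, SOT17 and SOT18 had 0.05, -0.36, 0.46, 0.56, 0.49, 0.52, 0.49 and 0.29. The side-chain genes FMO GS-OX1, FMO GS-OX3, FMO GS-OX5, AOP2 and AOP3 had 0.14, 0.08, 0.20, 0.09 and -0.54. MYB29, MYB76, TGG1, NSP1, NSP5 and GTR1 had 0.09, -0.44, 0.41, 0.58, 0.57 and 0.05. Median centring leaves in the ratios whatever part of the dye balance follows brightness, and most members are bright.

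The limits are 1 array per SA time, untreated controls for SA, 2 overexpressor arrays, no dye swap, and dim signals at 2 h and in both lines. A layout block for the difference was planned and not run, because no layout holds both contrasts. No paired analysis was possible because the groups share no replicate numbers that pair plants.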

Other observations

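Several members lie next to each other in the RefSeq annotation (TAIR10.1), and some neighbours had unlike SA means. MAM1 and MAM3, CYP79F1 and CYP79F2, FMO GS-OX2 and FMO GS-OX3, and MYB29 and MYB76 are adjacent pairs of related genes. Their SA means were -1.71 and -0.38, -1.28 and 0.06, -0.08 and -1.65, and -1.62 and -0.23. In each of these pairs the gene with a mean past 2-fold stood beside a copy at under 2-fold. The probes of CYP79F2, FMO GS-OX2 and MYB76 were dimmer than the median probe at 2 and 10 h. The background offset draws ratios of such dim spots towards 0. In other pairs both genes were under 2-fold. These were the adjacent IPMI SSU1 and IPMI2 (0.24 and -0.41), and CYP81F3 and CYP81F4 (-0.04 and -0.45). IGMT1 and IGMT2 (-0.06 and -0.30) were a further such pair. The sulphotransferase genes SOT18, of the aliphatic branch, and SOT16, of the indole branch, are also adjacent, with means of -0.96 and 1.38, on opposite sides of 0. MYB51 lies 1 gene away from SOT17, with means of 1.75 and -0.37. The myrosinase genes TGG1 and TGG2, with 2 genes between them, had means of -0.61 and -0.59. No difference between neighbours was tested, different probes need not respond alike, and cross-hybridisation between related copies was not tested.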
